A study of Mus musculus with 8 samples.

Results

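Type I interferon response genes were followed in the retina of rd10 mice, which are homozygous for a mutation in Pde6b, the gene of a subunit of the rod phosphodiesterase, and lose their photoreceptors after birth. The set was a list of 39 genes known to respond to type I interferon, found by symbol among the 57010 genes of the count table, and all 39 were among the 20457 genes with enough counts to be tested. The 4 groups were wild type at P15 (postnatal day 15, WT P15) and rd10 at P15, P18 and P21, with 2 biological replicates each, and each of the 8 poly(A) libraries came from 1 whole retina. The study's methods name wild-type littermates as controls and C57BL/6J as the wild-type strain, and no treatment is named for any group. No wild-type retina at P18 or P21 was analysed here, so that age and genotype cannot be told apart in the later comparisons.

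Type I interferons are secreted proteins that cells release after their sensors meet foreign or misplaced nucleic acid. They bind the receptor made of IFNAR1 and IFNAR2, whose kinases JAK1 and TYK2 phosphorylate STAT proteins. STAT2 joins IRF9 in a complex named ISGF3, which binds the interferon-stimulated response element (ISRE) in the promoters of the responding genes. Their products block viral replication, sense more nucleic acid and tune the signal itself, and in nervous tissue microglia, astroglia and infiltrating leukocytes are all able to respond.

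The libraries held between 28076947 and 33724562 counts. Levels are given as CPM, counts scaled to library size after TMM normalization, whose factors lay between 0.937 and 1.06. Replicates differed by far more than counting noise in every group. Y-linked genes had 5530 to 7193 counts in 4 libraries, which were both of rd10 P15 and the first replicate of each later age. In the other 4, both of WT P15 and the second replicate of each later age, they had 3 to 19. Sex thus changed along with the groups and between the later replicates. The labelled tissue carried its rod markers in every library, with a summed level of 8 genes between 17299 and 45489 CPM. In whole-retina RNA, more cells of a type and more RNA per cell cannot be told apart.

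The ISRE was searched in the promoters as 2 GAAA blocks 2 bases apart, GAAANNGAAA on either strand, in RefSeq windows of 300 bases (250 before the transcription start and 50 after it, build GRCm38.p6). A window was found for 29 of the 39 genes, and 15 of these (51.7%) held the letters. Among all 27025 genes with a window, 1079 (3.99%) held them. The letters were also in 24 of 52 windows (46.2%) of a second list of interferon response genes described further on. Of the genes whose level is given for every library below, 6 held the element, and their sites are shown here because they are the sequence to which ISGF3 binds. Capitals mark the GAAANNGAAA match, and each site is read 5′ to 3′ on the strand that carries it.
Oas1a (chr5:120907526-120907555, minus strand): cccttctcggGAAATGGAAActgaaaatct
Oas1a (chr5:120907520-120907549, minus strand): tcgggaaatgGAAACTGAAAatctacttcc
Bst2 (chr8:71537583-71537612, minus strand): ggcattccagGAAAATGAAActgaaaggct
Bst2 (chr8:71537577-71537606, minus strand): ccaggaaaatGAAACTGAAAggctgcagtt
Stat2 (chr10:128270266-128270295, minus strand): ctagggaaagGAAACTGAAAccagggtgcg
Rsad2 (chr12:26456553-26456582, plus strand): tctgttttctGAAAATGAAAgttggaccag
Ifit3 (chr19:34583363-34583392, minus strand): accagaagagGAAAGTGAAActtaccactg
Ifit3 (chr19:34583397-34583426, minus strand): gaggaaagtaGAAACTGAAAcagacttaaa
Ifit1 (chr19:34640775-34640804, minus strand): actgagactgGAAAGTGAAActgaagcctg
Ifit1 (chr19:34640794-34640823, minus strand): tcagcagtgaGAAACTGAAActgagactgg
In Oas1a and in Bst2 the paired matches overlap, since 3 GAAA blocks follow each other there. The Ifit3b promoter holds the same pair of 30-base stretches as Ifit3. A match is a description of the letters, and binding was not measured in these libraries.

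**Figure D1:**
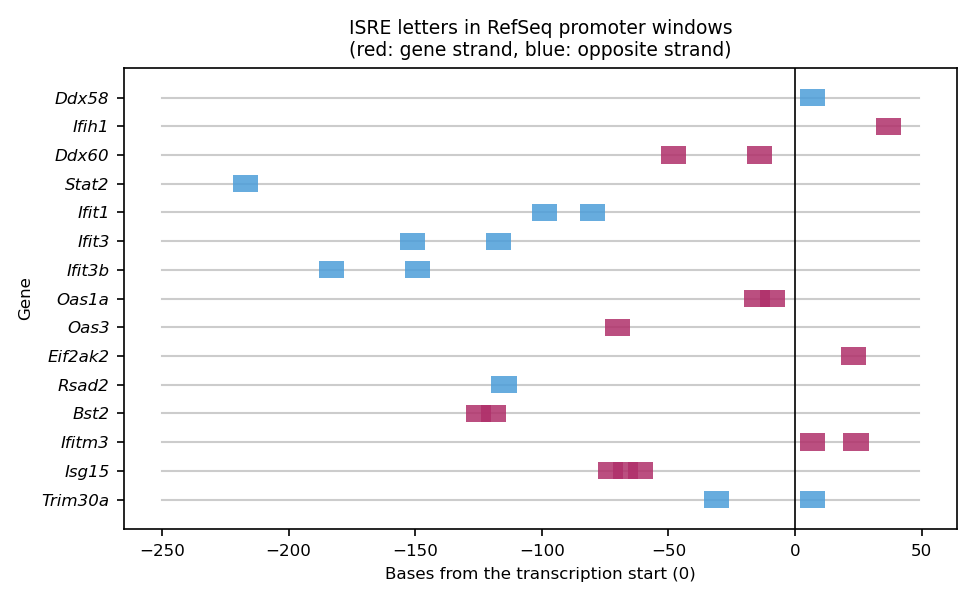
Positions of GAAANNGAAA in the promoter windows of the 15 interferon response genes that hold it; the x axis gives bases from the transcription start (0), each grey line is the window of 1 gene, and blocks mark matches on the gene's strand (red) or on the opposite strand (blue). For a gene with several start sites, each match is placed from its own start. The Oas1a matches lie next to the start, whereas the Stat2 match is 212 bases away from it.

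The 39 genes were low in retinas at P15 and high in rd10 retinas at P18 and P21, most of all in 1 of the 2 replicates at each age. Summed over the genes, the level was 220 and 239 CPM in the WT P15 replicates and 165 and 162 CPM in rd10 P15. At P18 it was 2117 CPM in replicate 1 and 960 CPM in replicate 2, and at P21 it was 2028 CPM in replicate 1 and 451 CPM in replicate 2. All 4 later libraries lay above all 4 libraries of P15, and replicate 2 of rd10 P21 was the lowest of the later ones.

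**Figure D2:**
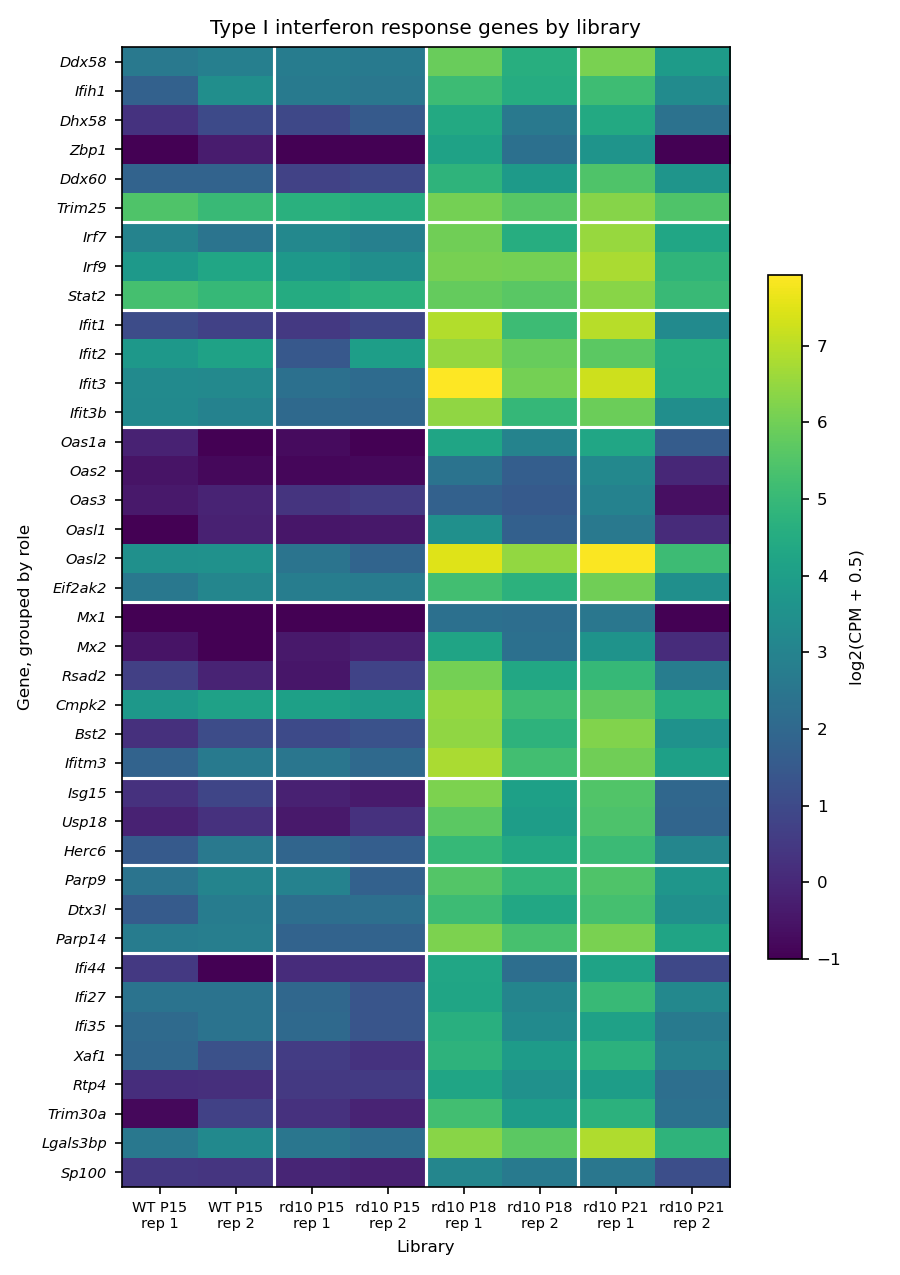
Level of the 39 type I interferon response genes in each library as log2(CPM + 0.5), with libraries on the x axis and genes on the y axis; white lines separate the groups and the roles of the genes. The rd10 P18 and rd10 P21 columns are brighter than the P15 columns, and replicate 1 is brighter than replicate 2 at both ages.

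The comparison of rd10 P15 with WT P15 asks whether the genes differed at the onset of degeneration. None of the 39 was called (edgeR, log2 fold change beyond 1 in either direction with an adjusted p under 0.05), beside 0.137% of all tested genes called higher and 0.0929% called lower. Only Trim25 had an unadjusted p under 0.05, beside 2523 of all genes, and DESeq2 called Zbp1 alone, which had 9 counts in 1 WT P15 replicate and none in the other 3 libraries. Both rd10 libraries lay below both WT libraries for 14 genes (background 24.9%) and above them for 3 (background 24.8%). The median log2 fold change was -0.32, from -5.26 for Zbp1 to 1.74 for Mx2, beside -0.01 over all tested genes. Sex and genotype went together here, and with a term for sex in the fit the median was -2.03 and Ifit3 was called lower (log2 fold change -3.43, adjusted p = 0.0289). Sex did not vary within either P15 group, so that this term was estimated only from the gap between the replicates at P18 and P21. The fit thus cannot tell sex and genotype apart at P15.

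In rd10 P18 against WT P15 every one of the 39 genes was higher. Both rd10 P18 libraries lay above both WT libraries for 39 of 39 genes, where 24.1% of all tested genes did so. The median log2 fold change was 3.12 (all genes, 0.01), and 37 genes were over 1 on this scale, beside 11.2% of all genes. Only 2 genes passed the adjusted threshold, Rtp4 and Sp100, with 1.15% of all genes called higher, while 33 had an unadjusted p under 0.05. The spread between replicates was wide in this gene set, as described further on. DESeq2, the test of the study, called 29 of the 39 higher (background 3.51%).

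In rd10 P21 against WT P15 the 39 fitted log2 fold changes were again all positive, with a median of 3.19 and 37 over 1. Here both rd10 libraries lay above both WT libraries for 33 genes (background 24.9%). The exceptions were Oas3, Mx1, Stat2, Trim25, Zbp1 and Ifih1, for which replicate 2 lay within or below the WT values. Rtp4 was the 1 gene called, beside 0.244% of all genes called higher, and 32 had an unadjusted p under 0.05. DESeq2 called 26 (background 2.21%). Without replicate 1 of rd10 P21, 35 of the 39 were positive, the median was 1.43 and none was called.

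Because a gene absent at P15 enters the test only through its later level, 33 of the 39 were also looked at as those that pass the filter on the 4 P15 libraries alone. Their median log2 fold changes against WT P15 were 2.94 at P18 and 2.79 at P21. The groups did not overlap, with rd10 above, for 33 of these genes in the P18 comparison and 29 in that of P21. The same held for 23.1% and 24.3% of all genes that pass that filter. The other 6 were Oas1a, Oas2, Oasl1, Mx1, Mx2 and Zbp1.

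Against rd10 P15, the median log2 fold change was 4.04 at P18 and 3.43 at P21, and all 39 genes were over 1 at both ages. At P18 both libraries lay above both rd10 P15 libraries for 39 genes (background 21.9%), and Rtp4 and Sp100 were called, with 0.523% of all genes called higher. At P21 the libraries lay above for 36 genes (background 26.0%), and none was called (0.298% of all genes called higher) although 34 had an unadjusted p under 0.05. DESeq2 called 33 genes at P18 (background 2.34%) and 32 at P21 (background 2.12%). These comparisons share their rd10 P18 or rd10 P21 libraries with those against WT P15. The 33 genes that pass the filter on the P15 libraries alone had medians of 3.80 at P18 and 3.13 at P21 against rd10 P15. Of these, 33 at P18 and 32 at P21 lay above rd10 P15 without overlap. The same held for 20.7% and 25.3% of all genes that pass that filter.

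Between rd10 P21 and rd10 P18 no gene of the set was called in either direction (0.00489% of all genes called higher, 0.0147% lower), none had an unadjusted p under 0.05, and DESeq2 called none. The log2 fold changes ran from -1.21 for Rsad2 to 0.60 for Ifi27, with a median of -0.34. Both P21 libraries lay below both P18 libraries for 2 genes, beside 22.0% of all genes.

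**Figure D3:**
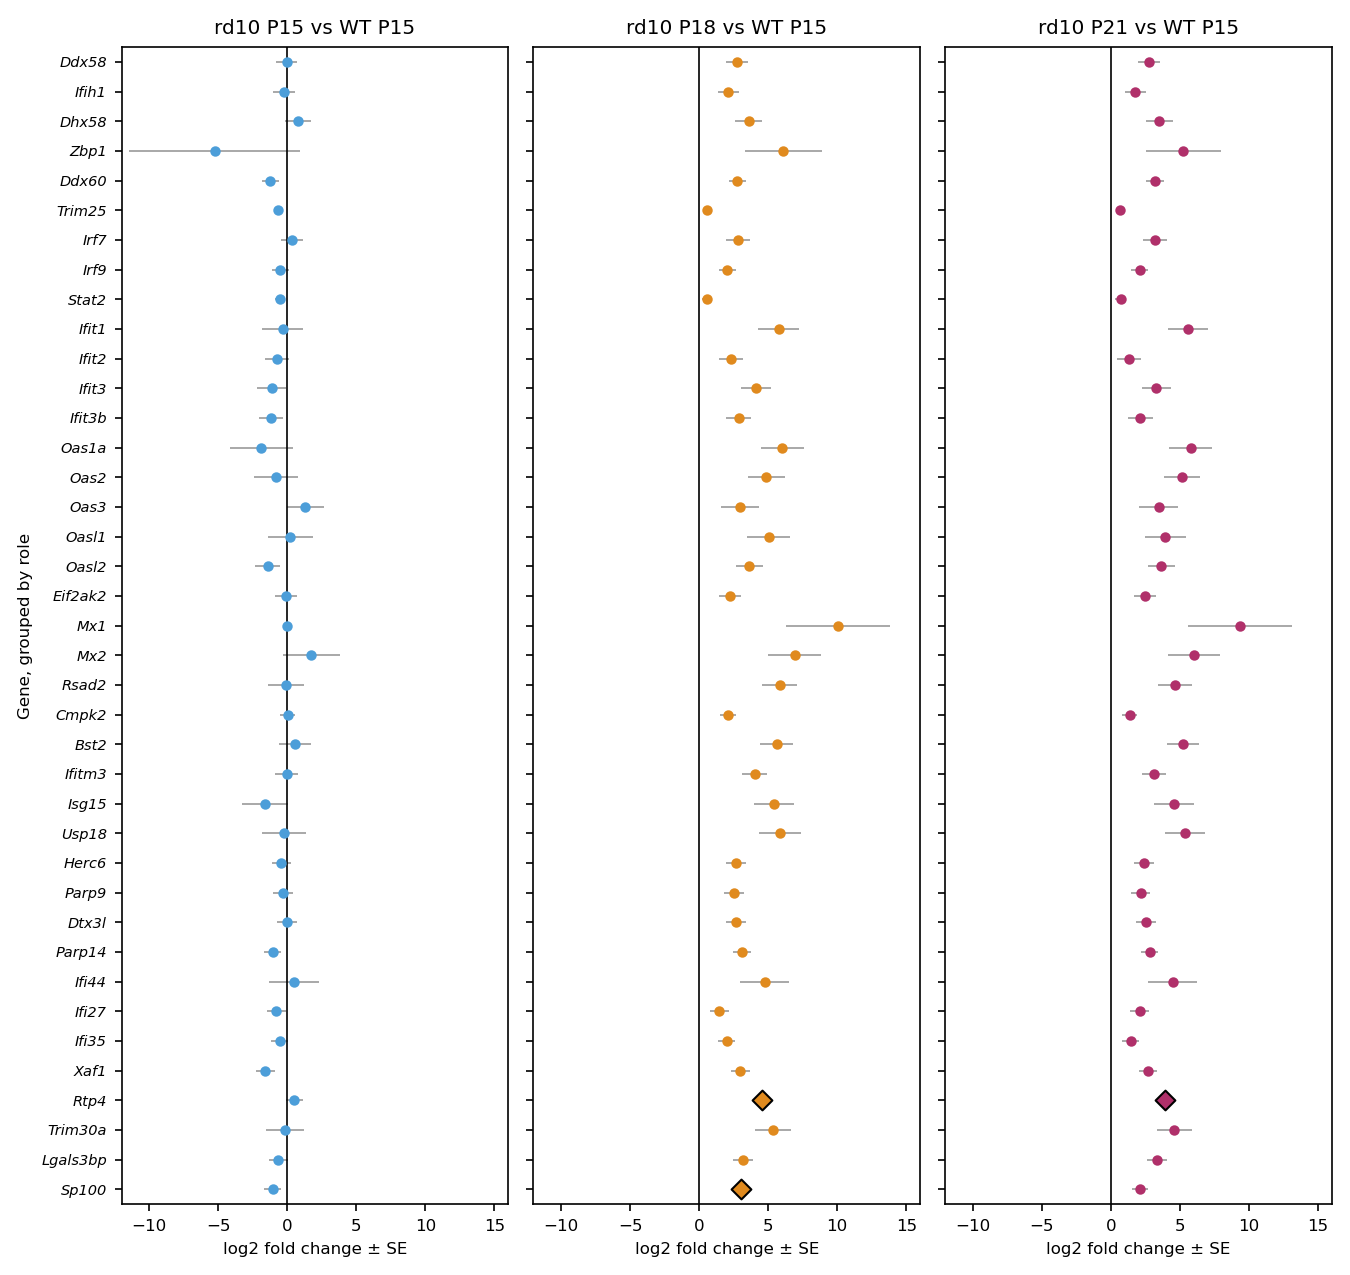
The log2 fold change (x axis) of the 39 genes (y axis, grouped by role) in rd10 P15, P18 and P21 against WT P15 by edgeR, 2 libraries per group; points are fitted values, bars are ± 1 SE, and black-edged diamonds mark called genes. At P15, 29 points lie below 0 and 9 above it. At P18 and P21 all lie above 0, with Rtp4 called at both later ages and Sp100 at P18. The fitted values of Mx1, without counts at P15, and of Zbp1 depend on the prior count.

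Sensors and signal adaptors find nucleic acid and pass the signal on. Of these 6 genes, all lay above WT P15 in both rd10 P18 libraries (background 24.1%) and 3 did so at P21 (background 24.9%). None was called (lowest adjusted p of 0.0818 at P18 and 0.103 at P21, edgeR), beside 1.15% and 0.244% of all genes called higher. Zbp1, a sensor of Z-form nucleic acid that can start necroptosis (chr2:173206612-173218923, minus strand, GRCm38), had no counts in WT P15 replicate 1 and 0.291 CPM in replicate 2, none in either rd10 P15 library, 17.1 and 4.35 CPM at P18, and 11.7 CPM and no counts at P21. It was thus present in 3 of the 4 later libraries and at 0 in replicate 2 of rd10 P21. Its mean at P18 was at least 213-fold higher than in rd10 P15, taking 3 counts over the group as the floor, and 73.5-fold higher than in WT P15 (log2 fold change 6.10 ± 2.79 SE, adjusted p = 0.364).

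Trim25, a ubiquitin ligase that activates RIG-I (chr11:88999376-89020293, plus strand), had a level of 44.1 and 32.5 CPM in WT P15, 24.9 and 22.6 CPM in rd10 P15, 65.6 and 48.5 CPM in rd10 P18, and 79.3 and 43.5 CPM in rd10 P21. The rd10 P15 libraries were the lowest, and the groups overlapped only between WT P15 and rd10 P21 or among the later ages. Against WT P15, the log2 fold change was 0.57 ± 0.29 SE at P18 (adjusted p = 0.361) and 0.68 ± 0.29 SE at P21 (adjusted p = 0.415). The RNA helicases Ddx58 (RIG-I), Ifih1 (MDA5), Dhx58 (LGP2) and Ddx60 reached between 20.9 and 69.3 CPM in replicate 1 of rd10 P21 and between 4.65 and 14.4 CPM in its replicate 2.

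Among the transcription factors, Irf9 and Stat2 are parts of ISGF3 and Irf7 drives further interferon genes. Irf9 (chr14:55603571-55610030, plus strand) stood at 13.5 and 19.2 CPM in WT P15, 13.02 and 10.2 CPM in rd10 P15, 68.6 and 66.4 CPM in rd10 P18, and 110 and 27.8 CPM in rd10 P21. Its P18 replicates were close together, unlike those of most other genes in the set. The log2 fold change against WT P15 was 2.05 ± 0.61 SE at P18 (adjusted p = 0.171) and 2.07 ± 0.61 SE at P21 (adjusted p = 0.261).

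Stat2 (chr10:128270559-128292849, plus strand) was already expressed at P15, with 38.6 and 31.2 CPM in WT P15 and 22.1 and 26.3 CPM in rd10 P15. It read 55.9 and 49.7 CPM at P18 and 79.7 and 32.6 CPM at P21. The fold over WT P15 was 1.51 at P18 (log2 fold change 0.60 ± 0.37 SE, adjusted p = 0.454) and 1.61 at P21 (0.69 ± 0.37 SE, adjusted p = 0.533), among the smallest of the set along with Trim25, and replicate 2 of rd10 P21 lay between the WT libraries. Irf7 ranged from 4.92 to 8.56 CPM over the P15 libraries and from 19.2 to 92.1 CPM over the later ones.

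The IFIT proteins bind foreign RNA and block its translation. Their 4 genes lie side by side on chromosome 19 between 34550694 and 34650009 (GRCm38), all on the plus strand. Each exceeded WT P15 in every rd10 library of P18 (background 24.1%) and P21 (background 24.9%). None was called, beside 1.15% and 0.244% of all genes called higher. Their adjusted p lay between 0.140 and 0.268 for P18, and between 0.233 and 0.648 for P21. Ifit1 had 1.63 and 1.17 CPM in WT P15, 0.891 and 1.34 CPM in rd10 P15, 119 and 33.9 CPM in rd10 P18, and 123 and 9.19 CPM in rd10 P21. Its mean was 54.6-fold higher at P18 (log2 fold change 5.77 ± 1.48 SE, adjusted p = 0.140) and 47.4-fold higher at P21 (5.57 ± 1.47 SE, adjusted p = 0.233) than in WT P15, and the P21 replicates were further apart than those at P18.

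Ifit3 was measured at 9.24 and 8.81 CPM in WT P15, 4.39 and 3.88 CPM in rd10 P15, 243 and 66.4 CPM in rd10 P18, and 152 and 22.4 CPM in rd10 P21. Its rd10 P15 values were below those of WT and its later values all above them. Against WT P15, the log2 fold change was 4.10 ± 1.10 SE at P18 (adjusted p = 0.153) and 3.27 ± 1.06 SE at P21 (adjusted p = 0.331). Of the 50-base stretches in Ifit3 transcripts, 51.2% also occur in Ifit3b, so that reads can be split between both and each value is uncertain.

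Ifit2, which can also promote cell death, had the smallest fold changes of the IFIT genes. It stood at 13.1 and 17.1 CPM in WT P15, 2.23 and 15.7 CPM in rd10 P15, 90.7 and 56.8 CPM in rd10 P18, and 51.2 and 23.0 CPM in rd10 P21. The first rd10 P15 library was far below the second. The fold over WT P15 was 4.89 at P18 (log2 fold change 2.29 ± 0.89 SE, adjusted p = 0.268) and 2.46 at P21 (1.30 ± 0.86 SE, adjusted p = 0.648).

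The oligoadenylate synthetases (OAS) make a messenger that activates RNase L, the OAS-like proteins are their relatives, and Eif2ak2 encodes PKR, which halts translation when it binds double-stranded RNA. All 6 genes of this group lay above WT P15 in both rd10 P18 libraries (background 24.1%) and 5 did so at P21 (background 24.9%). Their median log2 fold changes were 4.26 and 3.79. Oasl2 (chr5:114896936-114912234, plus strand) had 10.6 and 10.9 CPM in WT P15, 4.87 and 3.14 CPM in rd10 P15, 180 and 88.2 CPM in rd10 P18, and 234 and 34.5 CPM in rd10 P21. Its rd10 P15 libraries were below WT, its later libraries far above it, and its mean was 12.5-fold higher than in WT P15 at both later ages (log2 fold change 3.64 ± 0.96 SE at P18 with adjusted p = 0.145, and 3.64 ± 0.96 SE at P21 with adjusted p = 0.229).

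Oas1a (chr5:120896256-120907521, minus strand) was near 0 at P15, with 0.407 CPM and no counts in WT P15 and 0.0955 CPM and no counts in rd10 P15. It read 18.4 and 7.50 CPM at P18 and 18.9 and 2.52 CPM at P21, all above the P15 libraries. The log2 fold change against WT P15 was 6.02 ± 1.58 SE at P18 (adjusted p = 0.134) and 5.76 ± 1.57 SE at P21 (adjusted p = 0.227). In its transcripts 57.6% of the 50-base stretches are shared with Oas1g, so that its counts are uncertain as well.

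Oas2 (chr5:120730333-120749853, minus strand) had 0.185 and 0.0647 CPM in WT P15, 0.0636 and 0.0705 CPM in rd10 P15, 4.71 and 2.68 CPM in rd10 P18, and 8.45 and 0.489 CPM in rd10 P21. Even the lowest later library was above the P15 libraries. Its log2 fold change against WT P15 was 4.87 ± 1.32 SE at P18 (adjusted p = 0.118) and 5.15 ± 1.32 SE at P21 (adjusted p = 0.168). Oas3 was the member with 4 counts in replicate 2 of rd10 P21 and 257 in replicate 1.

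Other direct effectors act on viral particles and their replication. Mx1 and Mx2 encode dynamin-like GTPases that trap viral components, and both lie on chromosome 16. Mx1 had no counts in any of the 4 P15 libraries, 4.41 and 4.19 CPM at P18, and 5.25 CPM and no counts at P21. With 3 counts over the WT group as the floor, its mean was at least 83.1-fold higher than in WT P15 in the P18 retinas (adjusted p = 0.301) and at least 50.75-fold higher in those of P21 (adjusted p = 0.472). The 3 libraries that held it were alike, and replicate 2 of rd10 P21 was at 0 as at P15. The inbred C57BL/6J strain is known to carry a defective Mx1 gene, which affects its protein and part of its transcript.

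Mx2 had 0.185 CPM and no counts in WT P15, 0.255 and 0.353 CPM in rd10 P15, 17.99 and 4.38 CPM in rd10 P18, and 11.4 and 0.594 CPM in rd10 P21. All later values were above all P15 values, though replicate 2 of rd10 P21 only narrowly so. Against WT P15, the log2 fold change was 6.93 ± 1.91 SE at P18 (adjusted p = 0.147) and 6.03 ± 1.88 SE at P21 (adjusted p = 0.293).

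Rsad2, which encodes viperin, a radical SAM enzyme that makes a chain-ending nucleotide, lies beside Cmpk2, the gene of the kinase that feeds it, on chromosome 12. Rsad2 (chr12:26442746-26456452, minus strand) had 1.11 and 0.421 CPM in WT P15, 0.223 and 1.23 CPM in rd10 P15, 66.1 and 19.8 CPM in rd10 P18, and 30.7 and 6.40 CPM in rd10 P21. The later libraries were all above those at P15. Its log2 fold change against WT P15 was 5.82 ± 1.28 SE at P18 (adjusted p = 0.0991) and 4.62 ± 1.23 SE at P21 (adjusted p = 0.226). Cmpk2 differed less, ranging from 13.1 to 16.7 CPM at P15 and from 22.9 to 91.4 CPM later.

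Bst2, the gene of tetherin, which holds budding virus at the cell surface (chr8:71534255-71537456, minus strand), stood at 0.665 and 1.62 CPM in WT P15, 1.50 and 1.90 CPM in rd10 P15, 86.7 and 26.6 CPM in rd10 P18, and 74.7 and 11.3 CPM in rd10 P21. No P15 library came near the later ones. The mean was 49.6-fold higher at P18 (log2 fold change 5.61 ± 1.2 SE, adjusted p = 0.0934) and 37.6-fold higher at P21 (5.22 ± 1.18 SE, adjusted p = 0.168) than in WT P15. Ifitm3, which blocks fusion of virus with endosomes, ranged from 3.07 to 5.96 CPM at P15 and from 16.4 to 110 CPM later.

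The ISG15 system attaches a ubiquitin-like protein to other proteins, with Herc6 as a ligase and Usp18 as the protease that removes it. Usp18 also binds the receptor and damps further signalling. Usp18 (chr6:121245906-121270917, plus strand) had 0.407 and 0.712 CPM in WT P15, 0.255 and 0.705 CPM in rd10 P15, 50.6 and 15 CPM in rd10 P18, and 42.7 and 3.25 CPM in rd10 P21. The later libraries did not overlap those at P15. The log2 fold change against WT P15 was 5.85 ± 1.49 SE at P18 (adjusted p = 0.132) and 5.34 ± 1.47 SE at P21 (adjusted p = 0.240). Isg15 lay between 0.282 and 1.33 CPM at P15 and between 3.46 and 71.6 CPM later, and Herc6 between 2.37 and 5.54 CPM and between 8.15 and 33.7 CPM.

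Parp9, Dtx3l and Parp14 encode an ADP-ribosyltransferase complex and a relative that shape interferon signalling, and they lie together on chromosome 16. Their median log2 fold change against WT P15 was 2.66 at P18 and 2.53 at P21, and the adjusted p ran from 0.0760 to 0.150 at P18. All 3 lay above WT in both libraries at P18 (background 24.1%) and at P21 (background 24.9%). The highest P15 level among them was 7.71 CPM and the lowest later level was 10.6 CPM. Exons of Parp9 and Dtx3l overlap by 458 bases on opposite strands, and the library method does not mark strand, so that reads there cannot be told apart.

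The remaining 8 genes held both that were called. Rtp4, a chaperone of receptors that also binds viral RNA-copying complexes (chr16:23520291-23614222, plus strand), had 0.628 and 0.647 CPM in WT P15, 0.891 and 0.916 CPM in rd10 P15, 18.5 and 10.9 CPM in rd10 P18, and 15.2 and 4.33 CPM in rd10 P21. Its P15 replicates were close together and its later libraries all above them. It rose 23.1-fold from WT P15 to rd10 P18 (log2 fold change 4.52 ± 0.63 SE, adjusted p = 0.0196), 15.3-fold to rd10 P21 (3.93 ± 0.62 SE, adjusted p = 0.0487), and 16.3-fold from rd10 P15 to rd10 P18 (4.02 ± 0.61 SE, adjusted p = 0.0382). With 1 library left out in turn, its P18 call against WT was lost without either WT P15 replicate (adjusted p up to 0.169). Its P21 call was held in 3 of 8 such fits (adjusted p from 0.00813 to 0.326), and its P18 call against rd10 P15 in 3 of 8 (adjusted p from 0.00582 to 0.279). It shares 11.6% of its 50-base stretches with an overlapping gene model, Gm45338, on the same strand.

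Sp100, the gene of a nuclear body protein that represses viral chromatin (chr1:85649988-85709998, plus strand), had 0.850 and 0.809 CPM in WT P15, 0.446 and 0.353 CPM in rd10 P15, 8.05 and 5.73 CPM in rd10 P18, and 5.31 and 1.71 CPM in rd10 P21. The groups at P15 were separate from the later ones and rd10 P15 was the lowest. It rose 8.31-fold from WT P15 to rd10 P18 (log2 fold change 3.05 ± 0.59 SE, adjusted p = 0.0440) and 17.3-fold from rd10 P15 to rd10 P18 (4.09 ± 0.62 SE, adjusted p = 0.0383). At P21 the fold over WT P15 was 4.23 (log2 fold change 2.08 ± 0.57 SE, adjusted p = 0.181). Its P18 call against WT was held in 3 of the 8 fits that leave out 1 library, with adjusted p from 0.0154 to 0.261, and was lost with the term for sex (adjusted p = 0.0630). Its call against rd10 P15 was held in 3 of the 8 (adjusted p from 0.00710 to 0.270), and 5.86% of its 50-base stretches occur in other gene models.

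Lgals3bp, a secreted glycoprotein that binds galectins (chr11:118392751-118402092, minus strand), stood at 5.51 and 9.0 CPM in WT P15, 5.19 and 4.16 CPM in rd10 P15, 79.6 and 50.4 CPM in rd10 P18, and 116 and 27.5 CPM in rd10 P21. It was higher in every later library. Against WT P15, the log2 fold change was 3.16 ± 0.72 SE at P18 (adjusted p = 0.102) and 3.31 ± 0.72 SE at P21 (adjusted p = 0.151). Ifi44, Ifi27, Ifi35, Xaf1 and Trim30a together ranged from no counts to 4.79 CPM at P15 and from 1.40 to 36.7 CPM later. All 5 lay above WT P15 in both libraries at P18 (background 24.1%) and at P21 (background 24.9%).

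Levels of different genes were compared per length, as mean CPM per kilobase of exon. On this scale Trim25 and Ifitm3 led in WT P15, with 6.66 each, followed by Stat2 with 5.89. In rd10 P18 the order was led by Ifitm3 with 108, Ifit3 with 88.5, Bst2 with 62.7 and Isg15 with 58.1, while Trim25 stood at 9.91 and Stat2 at 8.91. At P21 Ifitm3 stood at 58.1, Ifit3 at 49.8 and Bst2 at 47.6. With replicates as far apart as they were, the order among these leading genes was not resolved.

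The replicates of rd10 P18 and of rd10 P21 differed in the same direction for every gene of the set. Replicate 1 exceeded replicate 2 in 39 of 39 genes at P18 and in 39 of 39 at P21, where 49.2% and 51.0% of all tested genes did so. In WT P15 it was higher for 13 genes, and in rd10 P15 for 22. The median ratio of replicate 1 to replicate 2 was 2.35 at P18, from 1.03 for Irf9 to 4.57 for Ifi44, and 21 genes differed over 2-fold, beside 8.37% of all genes.

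At P21 the median ratio was 4.75 and 38 genes differed over 2-fold, beside 8.48% of all genes. Among the 37 genes with counts in both replicates the ratio ran from 1.82 for Trim25 to 52.5 for Oas3, and Mx1 and Zbp1 were at 0 in replicate 2. Mx2 had a ratio of 19.1, Oas2 of 17.3, Ifit1 of 13.4 and Usp18 of 13.1, whereas Ifit2 had 2.23 and Stat2 had 2.44. The replicates with the higher levels were those with Y-linked counts, and both rd10 P15 libraries had Y-linked counts too, with the lowest summed levels of all (165 and 162 CPM). With a term for sex in the fit, the median log2 fold change against WT P15 was 2.40 at P18 with 12 genes called, and 1.82 at P21 with 1 called. That term was estimated only from the gap between these replicates of P18 and P21.

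**Figure D4:**
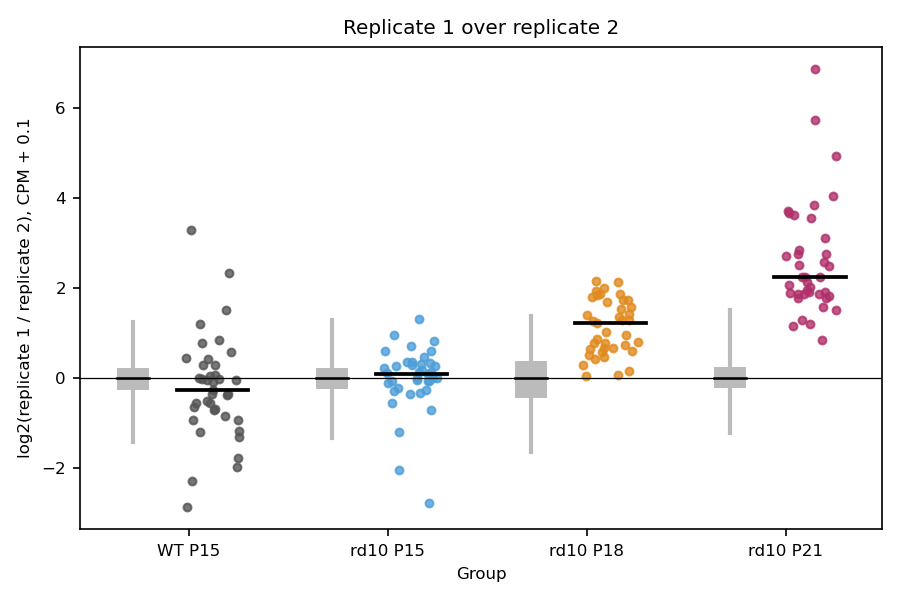
The log2 ratio of replicate 1 to replicate 2 (y axis, CPM + 0.1) in each group (x axis); each dot is 1 of the 39 genes with its median as a black line, and the grey box, bar and line give the quartiles, the 5th to 95th percentiles and the median of all 20457 tested genes. All dots lie above 0 at P18 and P21, and around 0 in both groups of P15.

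The ligands themselves were scarcely seen. Of 20 interferon ligand genes, 3 had any count. Ifnb1, the gene of interferon beta, had 16 counts in replicate 1 of rd10 P18 and 12 in replicate 1 of rd10 P21, and none in the other 6 libraries. Ifng, the type II interferon made by T and NK cells, had 12 counts in replicate 1 of rd10 P18 and none elsewhere. Both libraries with Ifnb1 counts were those with the highest summed levels of the response genes, and a count of 0 does not show absence at this depth.

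Among 8 genes for receptors and their kinases and transducers, none was called at any age. Over all genes, 1.15% were called higher than WT P15 at P18 and 0.244% at P21. Ifnar1 lay between 45.3 and 74.0 CPM over the 8 libraries, and Ifnar2 between 5.47 and 16.1 CPM. Jak1 lay between 162 and 202 CPM and Tyk2 between 18.7 and 24.8 CPM, each within a narrow range.

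Of 18 genes that act in nucleic acid sensing upstream of interferon, none was called in either direction. The background called higher than WT P15 was 1.15% at P18 and 0.244% at P21. The median log2 fold changes of these 18 against WT P15 were 0.59 at P18 and 0.25 at P21. Both rd10 libraries lay above both WT libraries for 10 of them at P18 (background 24.1%) and 7 at P21 (background 24.9%). They lay below for 1 at P18 and 2 at P21. Among 6 genes that restrain the signal, Socs3, an inhibitor of JAK kinases induced by several cytokines, was the only one called, higher in rd10 P18 than in WT P15 (log2 fold change 3.80 ± 0.29 SE, adjusted p = 0.00171). Socs3 read 3.58 and 3.17 CPM in WT P15, 51.6 and 42.7 CPM in rd10 P18, and 12.3 and 7.83 CPM in rd10 P21. Socs3 is also 1 of the markers of reactive Muller glia used below.

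A second list of 63 interferon response genes outside the set had 61 tested members. Their median log2 fold change against WT P15 was 2.92 at P18 and 2.68 at P21. Without overlap between the groups, rd10 was above WT for 58 of them at P18 (background 24.1%) and 45 at P21 (background 24.9%), and 5 were called higher at P18 (background 1.15%) and none at P21 (background 0.244%). The 5 were Irf1, Irf8, Ifi30, Trim30d and Shisa5. Their list was drawn up with earlier results of these libraries known, as was the set of 39, and the counts are a description.

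Markers of other cells were read beside the set. The 14 microglia markers summed to 78.4 and 89.7 CPM in WT P15, 118 and 117 CPM in rd10 P15, 292 and 307 CPM in rd10 P18, and 415 and 217 CPM in rd10 P21, and 5 were called higher than WT P15 at P18 (background 1.15%) and 4 at P21 (background 0.244%). At P18 the ratio of replicate 1 to replicate 2 was 0.952 for their sum, with 8 of the 14 markers higher in replicate 1 and 6 in replicate 2, where the ratio of the summed response genes was 2.20. At P21 the ratios were 1.91 and 4.50, and 13 of the 14 markers were higher in replicate 1. The 10 markers of reactive Muller glia summed to between 383 and 443 CPM over the P15 libraries. The sum was 2184 and 2071 CPM at P18, and 1148 and 998 CPM at P21. Of these markers, 9 were called higher than WT P15 at P18 (background 1.15%) and 6 at P21 (background 0.244%).

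Of the 10 markers of monocytes and macrophages, 4 had counts in WT P15, 6 in rd10 P15 and 9 at each later age. Their summed level lay between 73.4 and 116 CPM at P15, between 113 and 197 CPM at P18 and between 113 and 162 CPM at P21, most of it Fn1, which many other cells express. Of the 8 tested, 7 were above WT P15 without overlap at P18 (background 24.1%) and 5 at P21 (background 24.9%). Lyz2 was called higher at P18 (background 1.15%) and none at P21 (background 0.244%). Replicate 1 was higher than replicate 2 for 5 of the 10 markers at P18 and for 7 at P21, and lower for 4 and 2.

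Of 10 markers of T and NK cells, 2 had counts in WT P15, 1 in rd10 P15, 8 at P18 and 7 at P21, and Cd3e was at 0 in all 8 libraries. Their summed level was at most 4.47 CPM in any library, and it was 2.45 times as high in replicate 1 as in replicate 2 at P18 and 2.40 times at P21. Of 7 markers of plasmacytoid dendritic cells, 5 had counts in WT P15, 3 in rd10 P15, 4 at P18 and 5 at P21, Klk1 and Ly6d were at 0 in all libraries, and the summed level ran from 55.8 to 147 CPM. Irf8, also a myeloid factor, was 1 of the 3 of these markers that were tested. It was higher at P18 than in WT P15 (log2 fold change 2.45 ± 0.42 SE, adjusted p = 0.0330) and than in rd10 P15 (2.76 ± 0.43 SE, adjusted p = 0.0407). Over the 3 tested, the median log2 fold change at P18 was -0.22 against WT P15 and -0.33 against rd10 P15, with 1 positive in each. At P21 all 3 were positive against both. Irf8 itself lay between 1.97 and 19.9 CPM, so that most of the summed level came from other genes. Of the 6 neutrophil markers, 1 had counts in each P15 group, 3 at P18 and 2 at P21, with Ly6g, Mpo and Retnlg at 0 throughout. They summed to between 0.212 and 1.18 CPM at P15 and between 2.03 and 5.08 CPM later, with replicate 1 the higher by 1.34 times at P18 and 2.51 times at P21. The summed rod markers were lower in every rd10 library than in both WT P15 libraries. The part of these cell types and of sex in the levels of the response genes was not tested.

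**Figure D5:**
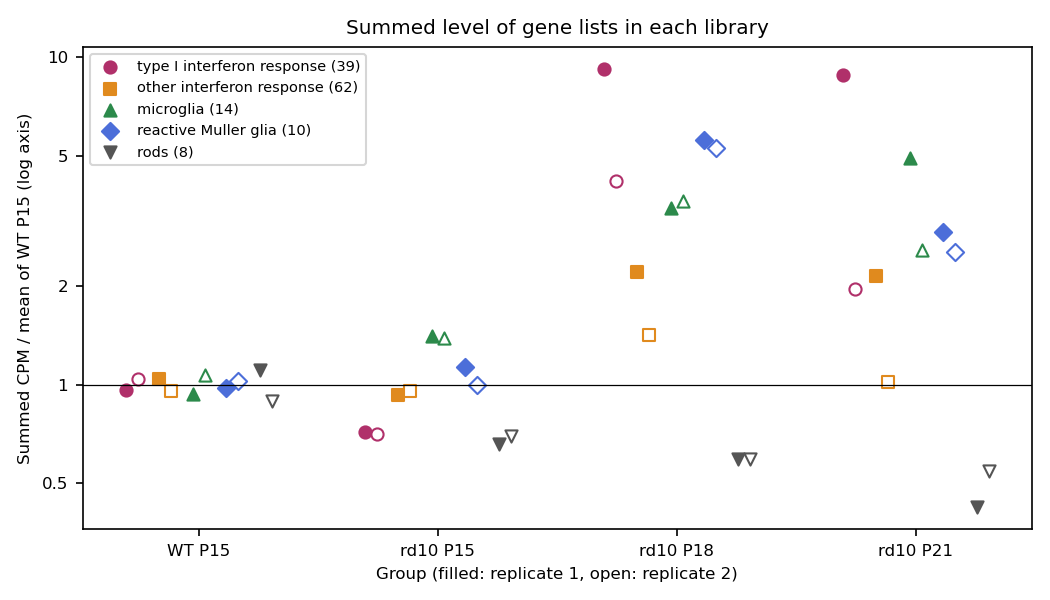
Summed CPM of 5 gene lists in each library divided by the mean of WT P15 (y axis, log scale) by group (x axis); filled symbols are replicate 1, open symbols replicate 2, and the number of genes is in the legend. The interferon response genes separate the replicates at P18 and P21, while the summed reactive Muller glia markers of the same libraries lie close together. The summed microglia markers lie close together at P18 (ratio of replicate 1 to replicate 2 of 0.952) and separate at P21 (1.91). At P21 this ratio is 4.50 for the 39 genes and 2.10 for the other interferon response genes.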

How the data were processed

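Poly(A) RNA of 1 whole retina per library was sequenced. The values used are raw counts per Ensembl gene, whole numbers without normalization, deposited by the authors for 8 libraries, all mapped to their labels (0 columns unused). HISAT2 is named in the submitters' processing notes; its version, how reads were counted, and which genome build and annotation were used are not given in the sources here. Symbols and positions came from GENCODE M21 (GRCm38, 52029 identifiers named), promoters from RefSeq.

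Counts went into edgeR's quasi-likelihood test (edgeR 4.0.16 under R 4.3.3, with limma 3.58.1): filterByExpr by group (minimum count 10, minimum total count 15), TMM scaling, and a robust quasi-likelihood fit of all 8 libraries over the 4 groups, with Benjamini-Hochberg adjustment over 20457 genes. Calls needed a log2 fold change beyond 1 in either direction with an adjusted p under 0.05, the criteria of the study. SE is the log2 fold change divided by the square root of F. Alternatives were DESeq2 1.42.0, scaling by RLE or by library size alone, no filter, the criteria without the fold, the 4 libraries compared alone, a replicate block, a term for sex, and each library left out. The fits were also run on simulated counts with the same spread for every gene and no effect of sex. Such counts lack the replicate differences seen here, so that the run does not show whether the calls hold.

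The 39 genes, the other lists and the alternatives were chosen with earlier results of these data known. Levels in every library and tests are given for genes called in any comparison, for the 8 with the highest mean CPM, and for the 8 with the largest absolute log2 fold change against WT P15 at P18 and the 8 at P21 among those with a mean count of at least 20. Other genes of the set given values, and Irf8, Lyz2 and the markers named at 0, were chosen after their values were seen. Replicates are separate retinas. A gene of the signalling list is not reported here.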

Additional observations from a re-analysis of the deposited data

How the results depend on the processing

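At P18, all 39 log2 fold changes against WT P15 were positive under every alternative tried, but the number of genes called differed between the fits. In the order P18 and P21 against WT P15, then P18 and P21 against rd10 P15, the counts called were 2, 1, 2 and 0. DESeq2 called 29, 26, 33 and 32, the fit of the 4 libraries compared 11, 0, 12 and 0, the replicate block 4, 0, 7 and 3, and the term for sex 12, 1, 26 and 22. With no filter on low counts, 2 were called in rd10 P21 against rd10 P15. For rd10 P15 against WT P15, where none was called, DESeq2 and the term for sex called 1 each, and the median log2 fold change of -0.32 was -2.03 with the term for sex and -0.49 with the replicate block. The term for sex gave medians of 2.40 for P18 and 1.82 for P21 against WT P15. In every comparison that term rested on the gap between the replicates of P18 and P21. RLE size factors, library size only and the adjusted p alone left all counts within 1.5 times, and library size only moved the median of all genes to 0.13 at P18 and 0.11 at P21. No label pairs the retinas by replicate number. Over all tested genes, the correlations of replicate differences between groups ran from -0.02 to 0.06, highest for rd10 P18 with rd10 P21. Such values cannot show whether retinas of the same replicate number share a batch. At P18 and P21, replicate 1 had both the Y-linked counts and the higher levels of the set.

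With each library left out in turn, between 0 and 22 genes were called for P18 against WT P15, 0 and 14 for P21 against WT P15, 0 and 20 for P18 against rd10 P15, and 0 and 18 for P21 against rd10 P15. For P18 against WT P15, none was called without either WT P15 replicate, and 22 or 20 without replicate 1 or 2 of rd10 P21. Leaving out replicate 2 of rd10 P18 gave 6 and leaving out its replicate 1, or either rd10 P15 library, gave 1. The 14 for P21 were those without rd10 P21 replicate 2. A group left with 1 library was taken to vary like the others. The number called over all genes moved between these fits too, as given below. Medians ran from -0.58 to -0.22 for rd10 P15 against WT P15, from 1.43 to 3.91 for P21 against WT P15 and from 1.47 to 4.08 for P21 against rd10 P15, each lowest P21 median being that without replicate 1 of rd10 P21. Without that library, the log2 fold change of Stat2 at P21 against WT P15 was -0.098 (1.2 without replicate 2), and that of Zbp1 was -5.23.

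Fits with a single replicate of rd10 P18 and rd10 P21 were added after the data were seen. Each later group then held 1 library, so that the spread between replicates came from the P15 groups alone. The gap between the replicates of P18 and P21 does not enter these fits. The numbers they called are thus no stronger evidence than those of the main fit. With replicate 2 alone, 19, 8, 18 and 9 genes were called in the same order, 4 were called for rd10 P15 against WT P15, and the P21 medians were 1.44 against WT P15 and 1.47 against rd10 P15, with Stat2 at -0.092 and Zbp1 at -5.18 against WT P15. With replicate 1 alone, 32, 30, 34 and 30 were called, and 5 for rd10 P15 against WT P15. Over all genes, 47 were called for rd10 P15, 303 for P18 and 79 for P21 against WT P15, which became 431, 954 and 571 by DESeq2, 206, 143 and 129 in the fit of the 4 libraries compared, 144, 383 and 160 with no filter, 16, 232 and 18 with the replicate block, 4, 191 and 36 with the term for sex, and between 4 and 1250 with 1 library left out. Against rd10 P15, 121 were called for P18 and 82 for P21, and 606 and 530 by DESeq2. Of 608 alternative values of single genes named here, 4 changed direction, 16 lost the call and 93 gained it. A call could be lost only where the main fit had made it, for Rtp4 at P18 and P21 and Sp100 at P18 against WT P15. The lost calls are thus not a share of 608. Fits that leave 1 library in a group are among the 608. What causes these shifts was not tested.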
